A study of Homo sapiens with 3 samples.

Results

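ETS1 peaks at promoters of long noncoding RNAs (lncRNAs) were examined in SCC25, an established human line grown from a tongue tumour of squamous type, which the study took as a mesenchymal model of head and neck squamous cell carcinoma (HNSCC). A peak was counted here if its midpoint lay within 500 bp of the transcription start site (TSS) of an lncRNA transcript and over 1500 bp from every TSS of a protein-coding gene, so that a promoter shared with a coding gene was left out. By this rule 996 of the 26958 consensus peaks on chromosomes 1 to 22 and X were lncRNA promoter peaks, or 3.69% (95% Wilson interval 3.48 to 3.93%). The peaks came from chromatin immunoprecipitation followed by sequencing (ChIP-Seq) of ETS1 in untreated SCC25 cells, with antibody C20 in 2 samples and antibody 501A in 1. They were deposited as 1 list of positions that pools these samples, with no score, summit, read count or value per sample, so the depth behind a peak is unknown. Neither the spread between samples nor a difference between antibodies can be given. No RNA values were used, so the identity of the cells was not checked here. It rests on the labels and on the STR (short tandem repeat) profiling that the study reports for its cell lines. All intervals below are Wilson intervals for shares and Newcombe intervals for differences of shares, both at 95%, and they cover the counting of peaks as if these were independent.

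ETS1 belongs to the ETS family of transcription factors, which bind DNA around a GGAA core. The bases on either side of that core set the affinity, and CCGGAAGT is a strong site for many members of the family. LncRNAs are long transcripts without a known protein product, and most are made by RNA polymerase II from promoters that range from CpG islands, as at most housekeeping genes, to CpG-poor sequence that resembles enhancers. Some act in the nucleus as scaffolds, some are the precursors of microRNAs or small nucleolar RNAs (snoRNAs), and for most no function is known.

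Stretches of 150 bp from 12 of these peaks are shown because they hold the kinds of site that the comparisons below turn on. They were read from GRCh37 (the nuclear sequence of hg19) on the strand of the lncRNA, 5′ to 3′. Capitals mark the ETS octamer CCGGAAGT, the shorter ETS string CGGAAG, the ETS core AGGAAG or AGGAAA and the AP-1 site TGACTCA or TGAGTCA, each on either strand, so that the octamer also appears as ACTTCCGG. AP-1 is the dimer of FOS and JUN proteins. CGGAAG lies inside the octamer, and the AGGAAG of the core differs from it at the base before GGAA, so that the core is counted apart from the other 2 strings. The first 5 stretches hold the octamer.
NORAD, chr20:34638851-34639000, minus strand: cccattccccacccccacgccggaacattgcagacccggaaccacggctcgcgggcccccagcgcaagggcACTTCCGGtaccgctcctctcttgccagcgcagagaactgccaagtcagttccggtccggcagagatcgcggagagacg
MIR100HG, chr11:122073910-122074059, minus strand: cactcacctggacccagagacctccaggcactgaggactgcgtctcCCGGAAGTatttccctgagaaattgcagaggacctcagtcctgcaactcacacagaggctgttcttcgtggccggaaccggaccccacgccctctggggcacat
GIHCG, chr12:58329917-58330066, minus strand: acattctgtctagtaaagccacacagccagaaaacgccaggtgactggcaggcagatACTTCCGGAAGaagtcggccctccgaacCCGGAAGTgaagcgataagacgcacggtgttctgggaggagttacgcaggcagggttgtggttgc
LINC00350, chr13:20161149-20161298, plus strand: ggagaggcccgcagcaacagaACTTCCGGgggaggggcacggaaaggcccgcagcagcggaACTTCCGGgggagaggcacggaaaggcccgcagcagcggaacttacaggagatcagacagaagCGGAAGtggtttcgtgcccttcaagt
LINC00511, chr17:70636412-70636561, minus strand: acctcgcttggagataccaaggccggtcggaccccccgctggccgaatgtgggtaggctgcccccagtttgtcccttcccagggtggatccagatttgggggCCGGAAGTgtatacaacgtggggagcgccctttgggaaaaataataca
The next 3 hold CGGAAG without the octamer.
SNHG12, chr1:28907994-28908143, minus strand: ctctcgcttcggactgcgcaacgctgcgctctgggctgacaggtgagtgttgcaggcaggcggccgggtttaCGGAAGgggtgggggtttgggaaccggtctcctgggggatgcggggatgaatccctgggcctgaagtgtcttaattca
SNHG29, chr17:16342010-16342159, plus strand: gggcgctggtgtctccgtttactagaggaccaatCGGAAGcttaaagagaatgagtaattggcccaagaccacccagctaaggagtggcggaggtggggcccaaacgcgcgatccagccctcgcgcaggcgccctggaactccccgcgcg
MIR9-3HG, chr15:89921871-89922020, plus strand: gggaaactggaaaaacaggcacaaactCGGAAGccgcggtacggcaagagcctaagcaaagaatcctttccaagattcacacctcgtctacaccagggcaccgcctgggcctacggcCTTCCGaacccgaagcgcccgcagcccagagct
The last 4 hold the core, and 3 of them an AP-1 site as well.
NEAT1, chr11:65190288-65190437, plus strand: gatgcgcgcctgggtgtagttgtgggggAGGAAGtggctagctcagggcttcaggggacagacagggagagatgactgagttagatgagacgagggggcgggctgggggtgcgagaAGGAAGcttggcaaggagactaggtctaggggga
MIR155HG, chr21:26934274-26934423, plus strand: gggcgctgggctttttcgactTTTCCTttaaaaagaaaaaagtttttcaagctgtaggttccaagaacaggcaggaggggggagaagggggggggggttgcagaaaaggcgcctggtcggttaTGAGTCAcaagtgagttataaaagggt
SOX2-OT, chr3:181416181-181416330, plus strand: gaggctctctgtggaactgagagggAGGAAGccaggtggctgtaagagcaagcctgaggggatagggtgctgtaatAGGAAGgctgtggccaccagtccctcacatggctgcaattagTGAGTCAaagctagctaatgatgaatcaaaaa
LUCAT1, chr5:90607662-90607811, minus strand: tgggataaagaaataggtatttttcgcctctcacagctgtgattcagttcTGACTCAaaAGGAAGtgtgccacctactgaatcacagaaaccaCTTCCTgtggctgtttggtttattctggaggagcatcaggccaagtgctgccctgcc
GIHCG and LINC00350 were the lncRNAs whose peak windows held most octamers, 2 each, and the octamer was present in 1.11% of the 14746 lncRNA promoters of the same kind in the genome, in windows of 600 bp centred on the TSS. CGGAAG was present in 12.5% of them, an AP-1 site in 12.3% and the core in 79.0%. NORAD makes an abundant cytoplasmic RNA that binds Pumilio proteins, and its octamer was centred 14 bp downstream of the TSS.

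The first question was how often an lncRNA promoter carried ETS1. Of the 14746 lncRNA genes with a TSS over 1500 bp from coding TSSs, 1046 had a peak midpoint within 500 bp of such a TSS, and this share of 7.09% (6.69 to 7.52%) is the background for the counts of named genes that follow. The same distance gave a peak at 10705 of 20098 protein-coding genes, or 53.3% (52.6 to 54.0%). All lncRNA genes within 500 bp of a member peak numbered 1048 of the 18592 annotated, of which 574 (54.8%) had no gene symbol. At 887 peaks (89.1%) a single lncRNA gene lay within 500 bp. The peak itself covered the nearest lncRNA TSS at 926 peaks (93.0%), and the median distance from midpoint to TSS was 133 bp (quartiles 48 and 255 bp). The midpoint lay upstream of the TSS at 507 peaks, downstream at 480 and on it at 9.

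The share with a peak differed between kinds of lncRNA. Hosts of snoRNAs, which carry snoRNAs in their introns and were taken here as the genes named SNHG, had a peak at 14 of 23 genes (60.9%, 40.8 to 77.8%). Hosts of microRNAs had one at 19 of 74 genes (25.7%, 17.1 to 36.7%). Genes named LINC, the intergenic lncRNAs, had one at 236 of 2197 genes (10.7%, 9.51 to 12.1%), and antisense genes at 81 of 1097 (7.38%, 5.98 to 9.08%). Genes without a symbol stood at 573 of 10456 (5.48%, 5.06 to 5.93%), with an interval below that of the LINC genes. Genes with another kind of symbol, such as MALAT1, stood at 112 of 633 (17.7%, 14.9 to 20.9%), divergent genes at 6 of 135 (4.44%) and intronic or overlapping genes at 5 of 131 (3.82%). TSSs were counted here only if over 1500 bp from every coding TSS, and a peak at another TSS of the gene did not count. SNHG genes had a median of 6 counted TSSs and microRNA hosts 5, against 1 for genes without a symbol. LINC genes and genes with another symbol both had a median of 2 counted TSSs, though their shares with a peak differed. Among genes with 1 counted TSS, the share was 8.61% for genes with another symbol (18 of 209, 5.52 to 13.2%). It was 6.30% for LINC genes (51 of 809, 4.83 to 8.19%), and these 2 intervals overlapped. The share was 4.70% without a symbol (386 of 8219, 4.26 to 5.18%) and 3.35% for antisense genes (19 of 567, 2.16 to 5.17%). Only 5 SNHG genes had 1 counted TSS, and 0 of them had a peak within 500 bp of it (interval up to 43.4%). SNHG1, among these 5, has 26 annotated TSSs and a peak midpoint 109 bp from a TSS close to a coding TSS. Over all kinds, genes with 1 counted TSS had a peak in 4.79% of cases, those with 2 to 4 in 7.85% and those with 5 or more in 19.9%. CpG content, with CpG-rich as defined below, was scored in the 600 bp window at the most upstream counted TSS of each gene. That TSS need not be the one with the peak. The share with a CpG-rich window there was 39.1% for SNHG genes, 14.9% for microRNA hosts, 14.8% for genes with another symbol and 5.23% for LINC genes. It was 4.10% for antisense genes, 3.68% for genes without a symbol, 3.05% for intronic or overlapping genes and 1.48% for divergent genes.

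**Figure D1:**
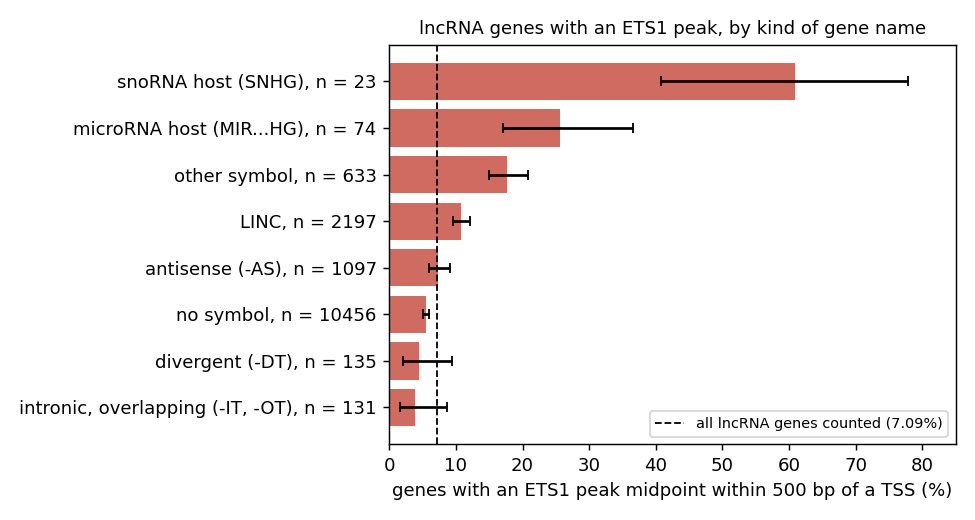
Share of lncRNA genes with an ETS1 peak midpoint within 500 bp of a TSS (x axis, percent) for each kind of gene name (y axis, with the number of genes), where bars are shares, black lines are 95% Wilson intervals and the dashed line is the share over all genes counted. SNHG genes stand highest at 60.9% with a wide interval, and genes without a symbol lie below the line at 5.48%. Only TSSs over 1500 bp from every coding TSS count.

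A list of 82 well-studied lncRNAs in 3 groups was then looked up. Of these, 39 had at least 1 lncRNA promoter peak, 13 had a peak within 500 bp of a TSS but a coding TSS within 1500 bp, 22 had no peak within 500 bp and 8 were not annotated as lncRNA genes. The list was chosen with earlier results of these data known, and the background of 7.09% is over genes that mostly have no symbol and fewer TSSs, so the share of the list is given as a description.

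In the group of nuclear bodies, housekeeping and RNA processing, 13 of 24 genes were reached. MALAT1, an abundant RNA of nuclear speckles, had 2 peaks. The peak at its upstream TSS was 795 bp wide (chr11:65264739-65265533), lay 23 bp from the TSS and had a CpG-rich window, and the other was 394 bp wide with its midpoint on a TSS further downstream (chr11:65266322-65266715). NEAT1, the scaffold of paraspeckles, had 1 peak of 3656 bp (chr11:65188405-65192060) with its midpoint 12 bp upstream of the TSS. The peaks of both genes lay inside super-enhancers (SEs, clusters of enhancers with very high H3K27 acetylation, as the authors called them in SCC25). TERC, the template RNA of telomerase, had a peak of 1310 bp with 2 ETS cores and 1 CGGAAG. JPX, a lncRNA of the X-inactivation centre, had one of 592 bp with 4 cores. The snoRNA hosts SNHG7, SNHG8, SNHG12, SNHG15, SNHG16, SNHG17 and SNHG29 were all reached, with peaks of 1013 to 2085 bp, while GAS5, SNHG1, SNHG3, SNHG5 and ZFAS1 had peaks at promoters shared with coding genes. SNHG14, KCNQ1OT1 and FTX had no peak within 500 bp, and their nearest peaks lay 20930, 42243 and 5699 bp from a TSS.

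In the group of microRNA hosts, 10 of 16 genes were reached by 16 peaks, of which 9 had a CpG-rich window. MIRLET7BHG, a host of let-7 microRNAs, had 4 peaks of 1262 to 2935 bp. MIR100HG had 2 peaks, one of 863 bp with the octamer shown above and one of 371 bp with 3 cores, 2 AP-1 sites and a GC content of 43.2%. MIR9-3HG and DLEU2 had 2 peaks each. MIR17HG, host of an oncogenic microRNA cluster, had a peak of 2369 bp with a GC content of 78.5%. MIR155HG had one of 1065 bp with 5 cores and an AP-1 site, and MIR3142HG one of 812 bp with 6 cores. MIR205HG and MIR200CHG, hosts of microRNAs of epithelial cells, missed the rule by little, with midpoints 528 and 582 bp from a TSS. MIR222HG and MIR4435-2HG had their nearest peaks 18811 and 87390 bp away.

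In the group of carcinoma, epithelium and epithelial to mesenchymal transition, 16 of 42 genes were reached by 29 peaks. LINC00511 had 8 of them, the most of any lncRNA gene, spread over 234141 bp of chromosome 17 (chr17:70403492-70637632), and it also has 84 annotated TSSs. Of these 8 peaks, 7 lay in SEs, 5 held the core, 4 an AP-1 site, 2 CGGAAG and 1 the octamer. Their widths ran from 461 to 2473 bp. MIRLET7BHG followed with 4 peaks, 5 genes had 3, 44 had 2 and 997 had 1. LUCAT1 had 2 peaks of 841 and 507 bp, both with a core, an AP-1 site and a low CpG content. UCA1 had 1 peak of 1059 bp inside an SE with 3 cores and 1 AP-1 site. SOX2-OT, which runs across the SOX2 gene, had a peak of 574 bp with 4 cores and an AP-1 site. DANCR, which restrains differentiation of epidermal progenitors, had one of 1156 bp with a GC content of 72.8% and no ETS string. CASC9, CASC15, HOTAIRM1, HOXA-AS2, LINC-PINT, LINC00960, LINC01116, LINC01503, PCAT1, PCAT6 and PVT1 were also reached. HOTAIR, H19, MEG3 and CYTOR had no peak within 500 bp, the nearest being 777 bp away at HOTAIR and 451371 bp away at CYTOR.

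The second question was how these peaks compared in sequence with peaks at coding promoters (10376 peaks within 500 bp of a coding TSS) and with distal peaks (12980 peaks over 1500 bp from every TSS). In the window of 600 bp around the midpoint, a window was called CpG-rich if its GC content was at least 55% and its observed over expected CpG at least 0.75. LncRNA promoter peaks were CpG-rich in 250 of 996 cases (25.1%, 22.5 to 27.9%), coding promoter peaks in 61.7% and distal peaks in 2.41%. The difference was -36.6 points from coding promoters (-39.3 to -33.6) and 22.7 points from distal peaks (20.1 to 25.5). The median GC content was 58.7% at lncRNA promoters, 66.5% at coding promoters and 52.8% at distal peaks. The share depended on the thresholds, and with a ratio of at least 0.6 and a GC content of at least 50%, chosen after the values were seen, 435 of the 996 peaks were CpG-rich (43.7%). LncRNA promoter peaks thus fell between the other classes in CpG content.

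**Figure D2:**
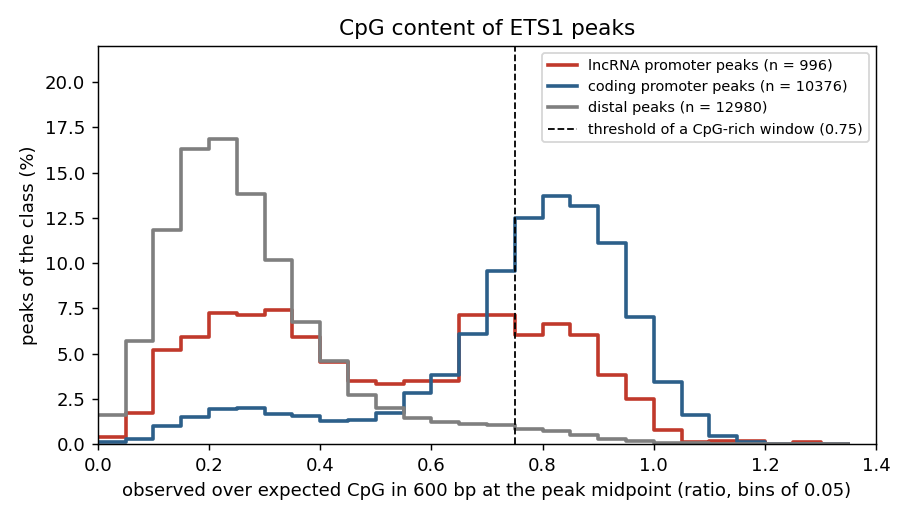
Observed over expected CpG in the 600 bp window of each peak (x axis, ratio, bins of 0.05) against the percent of peaks of the class (y axis), for lncRNA promoter, coding promoter and distal peaks, with the threshold of 0.75 dashed. Most distal peaks lie at low CpG and most coding promoter peaks near 0.8, and lncRNA promoter peaks spread over both ranges, with a median of 0.52.

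A CpG-rich promoter more often had a peak, also among lncRNAs. With the most upstream counted TSS of each gene, 248 of 665 lncRNA genes with a CpG-rich TSS window had a peak within 500 bp (37.3%, 33.7 to 41.0%), against 633 of 14081 with another window (4.50%, 4.17 to 4.85%). Coding genes had one in 64.5% of CpG-rich and 22.2% of other cases. At equal CpG class the lncRNA share was lower by 27.2 points (23.4 to 31.0) for CpG-rich and by 17.7 points (16.8 to 18.5) for other windows. Whether the lncRNA genes are transcribed in SCC25 was not tested.

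Motifs were compared between the classes of peak. CGGAAG was present at 32.2% of lncRNA promoter peaks (29.4 to 35.2%), 45.5% of coding promoter peaks and 16.4% of distal peaks. The octamer was present at 4.92% (3.74 to 6.44%), 9.49% and 1.56%. The AP-1 site ran in the opposite order, with 25.2% (22.6 to 28.0%) at lncRNA promoters, 7.78% at coding promoters and 39.3% at distal peaks. The core, also most frequent at distal peaks, was present in 79.8% (77.2 to 82.2%), 70.3% and 86.1%. GGGCGG, a site of SP and KLF factors, was present in 56.3%, 83.5% and 26.3%. For each of these 5 strings the interval of the difference was clear of 0 against both other classes, and lncRNA promoter peaks lay between them. In all, 110 differences of shares between pairs of classes were computed, and 71 had an interval clear of 0.

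**Figure D3:**
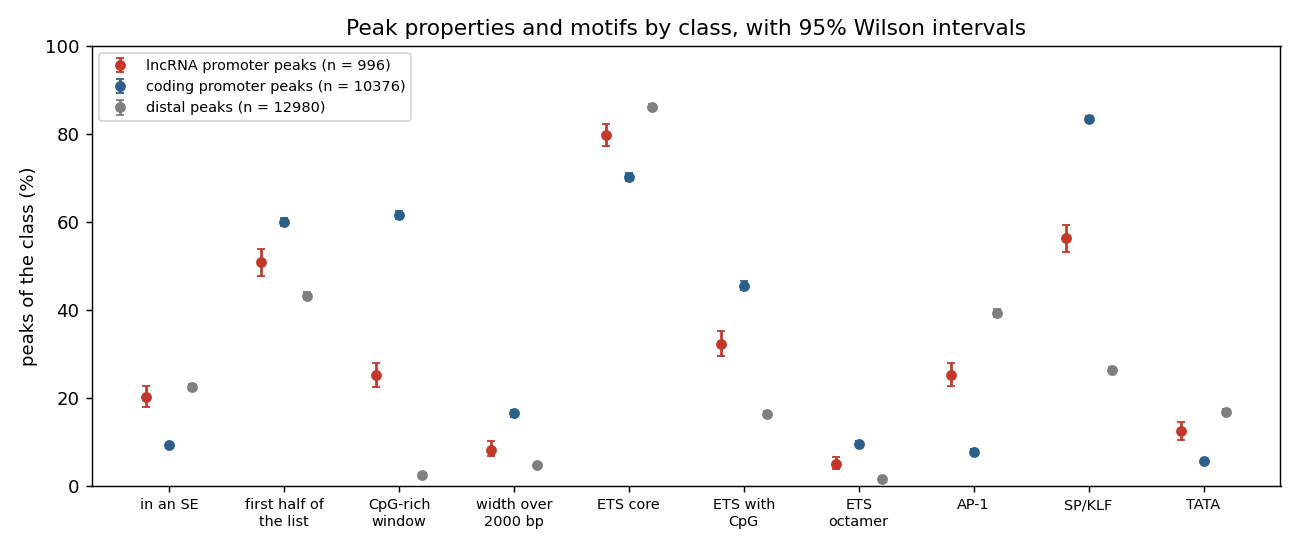
Percent of peaks (y axis) with each property or motif (x axis) for lncRNA promoter, coding promoter and distal peaks, where points are shares and bars are 95% Wilson intervals (smaller than the points for the larger classes). LncRNA promoter peaks lie between the other classes for all 10 properties shown.

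LncRNA promoter peaks were next divided at the thresholds for a CpG-rich window. The ratio of 0.75 does not lie in the gap of the distribution, since the bins from 0.65 to 0.70 and from 0.70 to 0.75 held 71 peaks each, the most at high ratios, and these peaks fall in the other subset. The 250 CpG-rich peaks held an AP-1 site in 5.6% of cases and the 746 other peaks in 31.8%, a difference of -26.2 points (-30.3 to -21.3). The core was present in 62.8% and 85.5% (-22.7 points, -29.3 to -16.4), CGGAAG in 46.4% and 27.5% (18.9 points, 12.0 to 25.8) and GGGCGG in 93.2% and 43.97% (a difference of 49.2 points). TGACGTCA, the site of CREB and ATF factors, was present in 6.8% and 1.07% (5.73 points, 3.01 to 9.58). For the octamer, with 6.4% and 4.42%, the interval held 0 (-0.997 to 5.92 points). CGGAAG, the octamer, GGGCGG and TGACGTCA contain CG, so their shares are tied to the division, while the AP-1 site and the core contain none.

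Each subset was then set beside the other peaks of its CpG class. CpG-rich lncRNA promoter peaks did not differ detectably from the 6397 CpG-rich coding promoter peaks in the core (62.8% and 64.0%, difference -7.40 to 4.72 points), CGGAAG (46.4% and 49.9%, -9.72 to 2.80), AP-1 (5.6% and 3.47%, -0.16 to 5.73) or GGGCGG (93.2% and 92.9%, -3.62 to 2.85). They did differ in 4 of the 14 motifs. CATTCC, the site of TEAD factors, was more frequent at the lncRNA promoters (24.4% and 16.4%, 3.02 to 13.8 points), as was TGACGTCA (6.8% and 3.58%, 0.663 to 7.06). The octamer was less frequent (6.4% and 10.5%, -6.60 to -0.246), as was AAGATGGC, the site of YY1 (2.4% and 7.35%, -6.40 to -2.14). The other lncRNA promoter peaks were close to distal peaks in the core (85.5% and 86.1%, -3.36 to 1.83), but held GGGCGG more often (43.97% and 26.3%, 14.1 to 21.3 points), CGGAAG more often (27.5% and 16.4%, 7.97 to 14.5) and an AP-1 site less often (31.8% and 39.3%, -10.8 to -3.97). Compared with coding promoter peaks that were not CpG-rich, they held an AP-1 site more often (31.8% and 14.7%, 13.6 to 20.7) and CGGAAG less often (27.5% and 38.4%, -14.4 to -7.29).

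Some of these contrasts changed with the looser thresholds of 0.6 and 50% GC. The AP-1 site was then present in 39.4% of the other lncRNA promoter peaks and 39.3% of distal peaks (-3.92 to 4.31 points), so the lower share against distal peaks was no longer seen. GGGCGG (31.9% and 26.3%, 1.797 to 9.64) and CGGAAG (20.7% and 16.4%, 1.102 to 7.91) still differed from distal peaks, by less. Against the other coding promoter peaks, the interval for CGGAAG came to hold 0 (20.7% and 24.6%, -7.61 to 0.155) while AP-1 still differed (39.4% and 26.0%, 8.91 to 17.9). Among CpG-rich peaks, TEAD (5.24 points, 1.43 to 9.51), YY1 (-5.20 points, -6.39 to -3.24) and octamer shares (-3.80 points, -5.97 to -0.916) still differed from coding promoters and TGACGTCA no longer did (-0.439 to 3.64), while AP-1 (6.90% and 3.85%, 0.9753 to 5.85) and GGGCGG (87.8% and 90.8%, -6.43 to -0.148) now did. Between the subsets of lncRNA promoter peaks, AP-1 (6.90% and 39.4%), the core (70.6% and 87.0%), CGGAAG (47.1% and 20.7%) and GGGCGG (87.8% and 31.9%) differed under both pairs of thresholds, and the octamer (7.13% and 3.21%, 1.18 to 6.96) under the looser pair. Of 56 such differences, 22 had intervals clear of 0 under both, 8 under the first pair of thresholds alone and 4 under the looser pair alone. The comparisons by CpG class that follow used the first pair.

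Windows at the peaks were also compared with windows of the same width 5000 bp away, toward the higher coordinate whatever the strand of the lncRNA. For 918 peaks this shifted window overlapped no peak, and a two-sided exact McNemar test was made for each of 14 motifs, with Benjamini-Hochberg adjustment over the 14. CGGAAG was present in 302 peak windows and 63 shifted windows, with 279 pairs in which only the peak held it and 40 in which only the shifted window did (exact test, adjusted p = 2.07e-44). The AP-1 site was present in 237 and 87 windows (exact test, adjusted p = 4.36e-19) and the octamer in 44 and 4 (adjusted p = 4.24e-09). The core was present in 79.5% and 73.1% of windows, with 197 pairs against 138 (exact test, adjusted p = 0.00209). GGGCGG and the E-box of MYC and USF factors (CACGTG), with TGACGTCA, GCGCATGC (NRF1) and TCTCGCGA (BANP) were also more frequent at the peaks. TCTCGCGA was in 9 peak windows and in 0 of 918 shifted windows, which allows a share of up to 0.327%. The TATA box string TATAAA was less frequent at the peaks (114 and 302 windows, exact test, adjusted p = 8.91e-26), as were ACCAAT or GCCAAT, the sites of NF-Y (229 and 299, adjusted p = 0.000807). In all, 9 motifs were more frequent at the peaks, 2 less frequent and 3 did not pass the exact test, namely those of RUNX (TGTGGT or TGCGGT, adjusted p = 0.396), YY1 (AAGATGGC, adjusted p = 0.563) and TEAD (CATTCC, adjusted p = 0.959).

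GC content moved with this comparison, at 59.2% in peak windows and 45.8% in shifted windows. In the 188 pairs whose GC content differed by at most 5 percentage points, CGGAAG was present in 20.2% and 10.1% of windows (33 pairs against 14, exact McNemar p = 0.00794) and the AP-1 site in 42.0% and 10.1% (75 against 15, p = 9.18e-11). CpG content was not matched in these pairs, and CGGAAG contains CG. There the core was present in 87.8% and 79.8% of windows, and its 37 pairs against 22 did not pass (exact p = 0.0674), although the ratio of these pairs, 1.68, was no smaller than the 1.43 over all 918 pairs. The octamer, with 6 pairs against 2, did not pass either (exact p = 0.289), and its ratio of 3 compares with 11 over all pairs. The other motifs, TATAAA and GGGCGG among them, were not tested in pairs of like GC content.

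**Figure D4:**
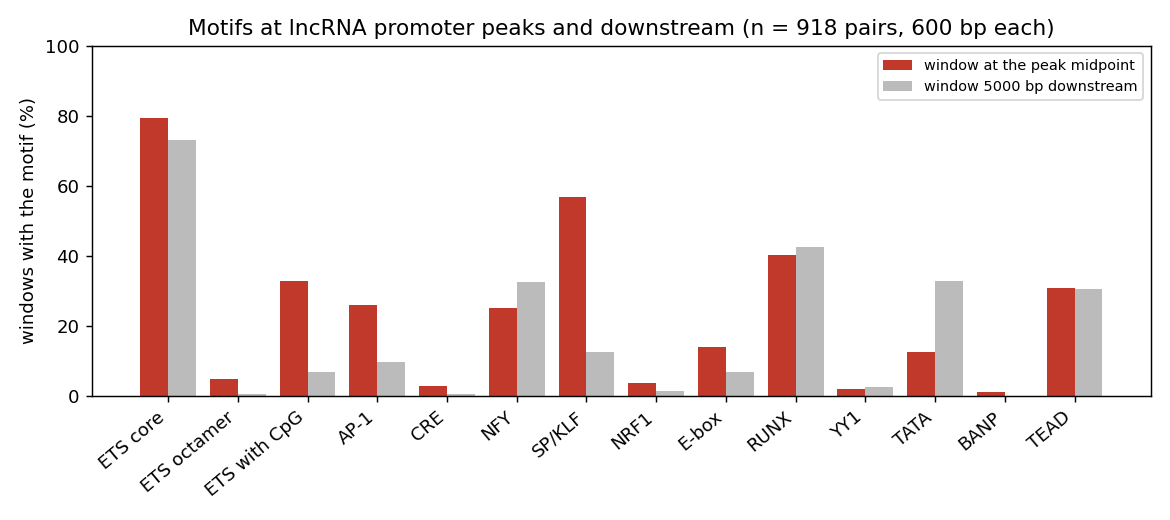
Percent of 600 bp windows with each of 14 motifs (y axis, percent, and x axis, motif) at the midpoint of 918 lncRNA promoter peaks (red) and 5000 bp toward the higher coordinate (grey). The SP/KLF, ETS with CpG (CGGAAG) and AP-1 bars are higher at the peaks, the TATA and NFY bars lower, and the ETS core bars differ little at 79.5% and 73.1%.

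The same test was made within each subset. In 236 CpG-rich pairs the core was present in 63.6% of peak windows and 70.3% of shifted windows (exact McNemar test, adjusted p = 0.178) and the AP-1 site in 5.93% and 11.02% (adjusted p = 0.113), while CGGAAG was present in 46.2% and 5.51% (adjusted p = 4.89e-25). The octamer was in 15 peak windows there and in 0 of 236 shifted windows, which allows a share of up to 1.27%. These peak windows, but not the shifted ones, were chosen for CpG content, so the contrasts in CGGAAG and the octamer are tied to that choice. At CpG-rich lncRNA promoters without a peak, CGGAAG was present in 41.0% of TSS-centred windows. In the 682 other pairs the core (85.04% and 74.05%, exact McNemar test, adjusted p = 1.80e-06), the AP-1 site (32.7% and 8.94%, adjusted p = 4.00e-26) and CGGAAG (28.3% and 7.33%, adjusted p = 4.37e-23) were all more frequent at the peaks.

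**Figure D5:**
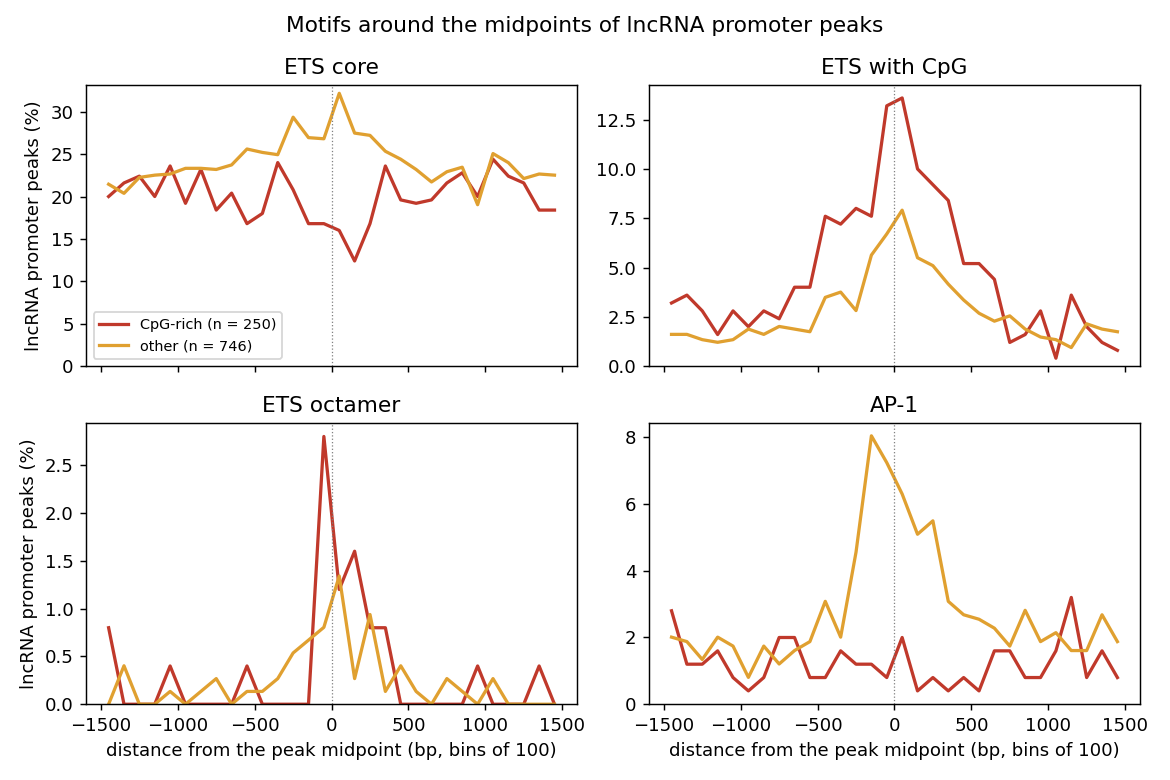
Percent of lncRNA promoter peaks with a motif (y axis) in bins of 100 bp by distance from the peak midpoint (x axis, bp), for the 250 CpG-rich peaks (red) and the 746 others (orange), in 4 panels with separate scales. Positive distances are toward the higher coordinate whatever the strand of the lncRNA. ETS with CpG (CGGAAG) rises at the midpoint in both subsets, to 13.6% and 7.9% of peaks per bin, AP-1 rises in the others alone, to 8.0%, and the core rises in the others to 32.2% and is lowest in CpG-rich peaks near the midpoint, at 12.4%.

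The positions of the strings were then examined. Distances from the midpoint run toward the higher coordinate whatever the strand of the lncRNA. In the CpG-rich peaks, CGGAAG was present in 13.6% of peaks in the 100 bp that begin at the midpoint. In bins over 600 bp from it toward the higher coordinate, the share was 0.4 to 4.4%. Those peaks were chosen for CpG content in the window at the midpoint, so this fall is tied to that choice. The AP-1 site reached 8.0% in the other peaks, in the bin from -200 to -100 bp, and stayed at or below 3.2% in every bin of the CpG-rich peaks. Octamers were also placed relative to the nearest lncRNA TSS, here by the strand of that TSS. Of the 61 octamers within 500 bp of it, 37 (60.7%) lay within 100 bp, 45 lay upstream and 15 downstream, and the median position was -41 bp. At MIATNB they lay at -360, -244, -119 and -88 bp, at GIHCG at -68 and -40 bp, and at LINC00350 at -42 and -2 bp. This span around the TSS is wider than the 600 bp peak window, in which GIHCG and LINC00350 held most octamers.

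Promoters of lncRNA genes without a peak give another background. For 13061 such genes, with no peak midpoint within 500 bp of any TSS counted and no peak overlapping the 1500 bp on either side of the most upstream one, the window centred on that TSS was compared with the TSS-centred windows of the 996 peaks. The latter were centred on the TSS nearest each midpoint, so a gene with several peaks could enter several times. The groups thus also differ in how the TSS was picked. CGGAAG was present in 33.4% of windows with a peak and 10.8% without (22.7 points, 19.8 to 25.7), the octamer in 5.02% and 0.842% (4.18 points, 2.97 to 5.72) and the AP-1 site in 23.3% and 11.8% (11.5 points, 8.88 to 14.2). For the core, at 79.6% and 78.9%, the interval of the difference over all windows held 0 (0.704 points, -1.999 to 3.19). Within CpG-rich windows, CGGAAG was present in 48.6% of 247 windows with a peak and 41.0% of 368 without, a difference whose interval held 0 (-0.445 to 15.5 points), and the AP-1 site in 5.67% and 2.45% (3.22 points, 0.111 to 7.02). For the core, at 67.6% and 64.4% in CpG-rich windows, the interval held 0 as well (-4.48 to 10.7 points). So did that for the octamer, at 7.29% and 4.35% (-0.756 to 7.21 points). In the other windows, 749 with a peak and 12693 without, the core was more frequent with a peak (83.6% and 79.3%, 4.24 points, 1.34 to 6.82), as were CGGAAG (28.4% and 9.88%, 18.6 points, 15.4 to 21.9) and the AP-1 site (29.1% and 12.1%, with an interval of 13.8 to 20.4 points). The octamer was more frequent there too (4.27% and 0.741%, 2.29 to 5.23 points).

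SEs held 201 of the lncRNA promoter peaks (20.2%, 17.8 to 22.8%), against 9.18% of coding promoter peaks (an interval of 8.55 to 13.7 points for the difference) and 22.4% of distal peaks (-2.24 points, -4.72 to 0.46). At equal CpG class, 14.4% of CpG-rich lncRNA promoter peaks and 7.003% of CpG-rich coding promoter peaks lay in SEs (7.40 points, 3.53 to 12.3). SEs with at least 1 lncRNA promoter peak numbered 155 of 965 (16.1%, 13.9 to 18.5%), 33 held 2 or more and the most in a single SE was 5. Peaks in SEs were wider, with a median of 1233 bp against 928 bp outside, and held CGGAAG in 17.9% of cases against 35.8% outside, while the AP-1 site was present in 25.4% and 25.2%. They were also less often CpG-rich (17.9% against 26.9% outside), and CGGAAG was not compared between them within a CpG class.

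The 10 highest-ranked SEs with such a peak held 14 of them. LINC02753 (chr11:69909232-69913442, 4211 bp) starts inside ANO1, the gene of a chloride channel, and LINC02989 (chr11:12107527-12109337) lies near MICAL2. ENSG00000287269 (chr22:36730814-36732214) starts inside MYH9, the gene of a nonmuscle myosin heavy chain, and ENSG00000260401 (chr11:72948651-72951921) inside P2RY2, the gene of a nucleotide receptor. ENSG00000267062 starts inside PRDX2 and HOOK2 and ARHGAP29-AS1 inside ARHGAP29, while ENSG00000289057 and ENSG00000286210 lie outside coding genes in the same SE. GASAL1, LINC02939, LINC02029, ENSG00000289409 and 2 of the MIRLET7BHG peaks make up the rest. Of these 14 peaks, 4 were CpG-rich, 10 held the core, 2 CGGAAG, 2 an AP-1 site and 0 the octamer.

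Width and place in the list were the remaining measures. LncRNA promoter peaks had a median width of 982 bp (quartiles 656 and 1424 bp), coding promoter peaks 1290 bp and distal peaks 706 bp. CpG-rich lncRNA promoter peaks had a median of 1243.5 bp (quartiles 867 and 1589 bp) and the others 897.5 bp (612 and 1327 bp), so that the ranges overlapped widely. The 10 widest ran from 3341 to 5628 bp and all lay in SEs. They were at LINC03073 (5628 bp, chr7:5465152-5470779), LINC02298, LINC02753, GASAL1, LINC01132, IER5L-AS1, NEAT1, ENSG00000285685, RENO1 and MIR193BHG. LncRNA promoter peaks early in the deposited list were wider, with medians of 1147.5 bp in its first 10% and 703 bp in its last 10%. The list has no stated order. In its first 50% lay 506 of the lncRNA promoter peaks (50.8%, 47.7 to 53.9%), 60.0% of coding promoter peaks and 43.2% of distal peaks, so that lncRNA promoter peaks came later than coding promoter peaks (-9.21 points, -12.5 to -5.97) and earlier than distal ones (7.60 points, 4.38 to 10.8). Counts per 10% of the list ran from 77 to 114. The 10 earliest included LUCAT1 (chr5:90607472-90608312), GNA15-DT (chr19:3154855-3156010) and 8 genes without a symbol, of which ENSG00000259003 on chromosome 14 came first, and 9 of the 10 held the core, 5 an AP-1 site and 1 the octamer.

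The genomic setting was mostly intergenic. At 825 peaks (82.8%) the nearest lncRNA TSS lay outside coding genes, at 130 (13.1%) inside a coding gene on the opposite strand, at 36 (3.61%) inside one on the same strand and at 5 inside genes on both strands. LncRNA TSSs on both strands within 1000 bp of the midpoint were found at 139 peaks (14.0%, 11.9 to 16.2%). These shares were not set beside those of all lncRNA genes counted, so they describe the peaks alone. The midpoint fell in a coding exon at 30 peaks. The median distance to the nearest coding TSS was 27267 bp, and 120 peaks (12.0%) lay within 5000 bp of one. By chromosome, the share of lncRNA genes with a peak was highest on chromosome 22 (34 of 345, 9.86%, 7.14 to 13.5%) and lowest on chromosome 4 (22 of 735, 2.99%, 1.98 to 4.49%).

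The thresholds of the rule divided continuous distances. Of 2893 peaks within 500 bp of an lncRNA TSS, 1897 were left out because a coding TSS lay within 1500 bp, and 1783 of these were within 500 bp of it. Just inside the first threshold lay peaks at ENSG00000289903 and ENSG00000267069, both 500 bp from the TSS, and just outside it were peaks at ENSG00000226281 and ENSG00000288096, both at 503 bp. Just over 1500 bp from a coding TSS lay peaks at ENSG00000282057 by DDAH1 (1501 bp) and LRFN5-DT (1507 bp). Just within that distance were peaks at ENSG00000262823 by SPNS3 (1438 bp) and ZNF584-DT (1415 bp).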

How the data were processed

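The authors sequenced ETS1 ChIP libraries from 3 samples of SCC25 cells. Per the labels and methods, reads of the 3 samples were mapped to hg19 with Bowtie 1.1.1, keeping reads with a single locus, and handled with SAMtools 1.3. Peaks were called with MACS2 against a merged input and joined by IDR, which keeps peaks with reproducible ranks. The authors deposited 1 list with 3 columns, the chromosome, start and end of each peak, pooled over the samples. It holds no signal unit and no depth. Keeping reads with a single locus leaves repeated sequence, and near-identical copies of lncRNAs and transcribed pseudogenes, with few reads, so bound sites there may lack a peak.

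Midpoints were compared with all TSSs of GENCODE release 44 on GRCh37, where 1 peak, on the mitochondrial chromosome, ran past the end of its sequence. Peaks on chromosome Y and on the mitochondrial chromosome were left out. SEs were the positions the authors called with ROSE, and an SE counted if it overlapped a peak by at least 1 bp. Typical enhancers and RNA levels were not analysed here. Motifs were counted on both strands in 600 bp windows. Shares have Wilson and differences Newcombe intervals (95%), and paired windows a two-sided exact McNemar test. No test of a difference between conditions was possible, since there is 1 condition. The lists, members and motifs were chosen with earlier results of these data known. Genes named are a list of 82 lncRNAs, the 10 widest and 10 earliest peaks, those in the 10 highest-ranked SEs that hold one, those with most octamers, those at the thresholds, and the chromosomes with the highest and lowest share. Alternatives were the TSS set, the distances, the first 50% of the list, the window and the comparison window, and some, described as added, were chosen after the values were seen. The code was tested on simulated data. Python 3.11 was used with pandas 2.3.3, NumPy 2.4.6, SciPy 1.17.1, pysam 0.24.0 and matplotlib 3.10.9.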

Additional observations from a re-analysis of the deposited data

How the results depend on the processing

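Of 130 values under alternative settings, 95 stayed within the interval, count range or side of the threshold of the reported value, 30 moved, 2 lost significance and 3 reversed. The 3 were differences of the lncRNA promoter peaks that were not CpG-rich under thresholds of 0.6 and 50% GC, at 0.126 points for AP-1 and -0.123 points for TCTCGCGA against distal peaks and 0.378 points for the octamer against coding promoter peaks, all with intervals that held 0. The number of lncRNA promoter peaks moved beyond 1.5 times only with the first 50% of the list (506). The share in SEs was 23.7% in that part of the list and 17.5% with TSSs within 250 bp, and the median width was 1090.5 and 933 bp. The share with the core was 43.9% in windows of 200 bp. The octamer share was 6.92% in the first 50% of the list and 2.51% in 200 bp windows. The CpG-rich share was 21.8% with TSSs within 1000 bp, 29.4% in 200 bp windows and 43.7% with those looser thresholds, which were added after the values were seen. Shorter windows hold fewer motifs by construction. The share of lncRNA genes with a peak was 6.65% with basic transcripts, 3.73% with the first 50% of the list, 5.17% and 8.96% with 250 and 1000 bp, 7.73% with coding TSSs over 500 bp and 9.16% with any base of the peak. TSSs on both strands were found at 16.4% of peaks in the first 50% of the list and at 11.3% with TSSs within 1000 bp. With comparison windows of like GC content, the ratio of discordant pairs was 1.68 for the core (p = 0.0674) and 3 for the octamer (p = 0.289, added later) in exact McNemar tests, where 188 of 918 pairs were left. Under their other settings these ratios ran from 1.31 to 1.58 and from 9.2 to 23 and passed. The ratios for CGGAAG and AP-1 ran from 2.36 to 10.7 and from 3.18 to 5 over their added settings, all of which passed. No replicate could be left out and no paired analysis was possible because the list pools the samples. Depth per peak is unknown, so a promoter without a peak is one where no peak was detected, not one shown to be unbound.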
